A study of Caenorhabditis elegans with 12 samples.

Results

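The cadmium responsive genes cdr-1 to cdr-7 of Caenorhabditis elegans were followed across 4 diets in wild-type larvae. The 7 genes were taken by name, and the set was chosen by a measured pattern, since cdr-4 was known from these arrays to set worms on dihomo-gamma-linolenic acid apart from those on other acids. Of the 7 genes, 5 had a probe set on the array, 1 each, among 25478 genes measured. These were cdr-1 (F35E8.11), cdr-2 (C54D10.1), cdr-3 (C54D10.2), cdr-4 (K01D12.11) and cdr-6 (K01D12.12). No probe set carried the name cdr-5 or cdr-7 (K01D12.13) in the annotation used here, so neither was analysed here.

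The worms were age-synchronised N2, the standard wild-type strain, raised at 20 °C from first-stage (L1) larvae to the fourth larval stage (L4) on nematode growth medium (NGM) with Escherichia coli OP50 as food. Plates held 1000 µM dihomo-gamma-linolenic acid (DGLA), gamma-linolenic acid (GLA) or linoleic acid (LNA), or, as the control, no added acid. All plates held the same 1% (v/v) ethanol vehicle. Each group had 3 biological replicates with 1 array each, 12 arrays in all. About 2000 larvae went onto each plate, so each array reports a pool of whole animals, in which more cells of a type and more RNA per cell cannot be told apart. The values are RMA (robust multi-array average) signals on the log2 scale, so a difference of 1 is a doubling.

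CDR proteins form a nematode family with a fold related to glutathione S-transferases. Its founding member, cdr-1, is known as a gene that cadmium switches on strongly in the intestine, where its protein sits in lysosomes. In this species cdr-4 is known to respond to several metals and to osmotic stress, and cdr-6 is known as a steadily expressed member. The 3 acids are neighbours in one pathway. The desaturase FAT-3 adds a double bond to LNA and so makes GLA, and the elongase ELO-1 lengthens GLA to DGLA.

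Array medians lay between 4.47 and 4.56, and lower quartiles between 2.90 and 2.99. LNA arrays 2 and 3 stood apart from the other 10 arrays on the first principal component, with scores of 41.95 and 35.68 against -18.02 to 3.64, and values that rest on them are given also without them where they moved by over 1.5 times or changed direction or call. All 8 intestinal markers lay above the array median on every array, as did the 3 measured sperm genes, which L4 hermaphrodites transcribe. The mean of the intestinal markers was 9.38 to 9.53 on DGLA arrays, 9.40 to 9.43 on GLA arrays, 9.46 to 9.58 on LNA arrays and 9.33 to 9.42 on control arrays, and none of the 8 passed the test in any comparison.

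The gene with the widest range was cdr-4. It read 8.41, 8.31 and 8.31 on the DGLA arrays, 7.02, 7.07 and 6.92 on the GLA arrays, 6.23, 6.45 and 6.33 on the LNA arrays, and 6.49, 6.44 and 6.46 on the control arrays. All DGLA arrays lay above all GLA arrays, and all GLA arrays lay above both the LNA and the control arrays, while LNA and control arrays overlapped. The plot of signal by array shows these steps beside the other family members. The mean of the 5 measured yolk protein genes, markers of adult intestine, took the same order of groups, at 8.73 with DGLA, 8.69 with GLA, 8.30 with LNA and 8.43 in control. Its array ranges overlapped (8.58 to 9.0 with DGLA, 8.61 to 8.77 with GLA, 7.55 to 8.77 with LNA and 8.0 to 9.09 in control), none of the 5 was called by limma in any comparison, and their part in the cdr-4 levels was not tested. The lowest LNA mean, 7.55, was that of LNA array 2, which read lowest of the LNA arrays in each of the 5 genes. Without that array, or with LNA array 1 alone, the LNA mean lay above the control mean, so the order was lost.

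**Figure D1:**
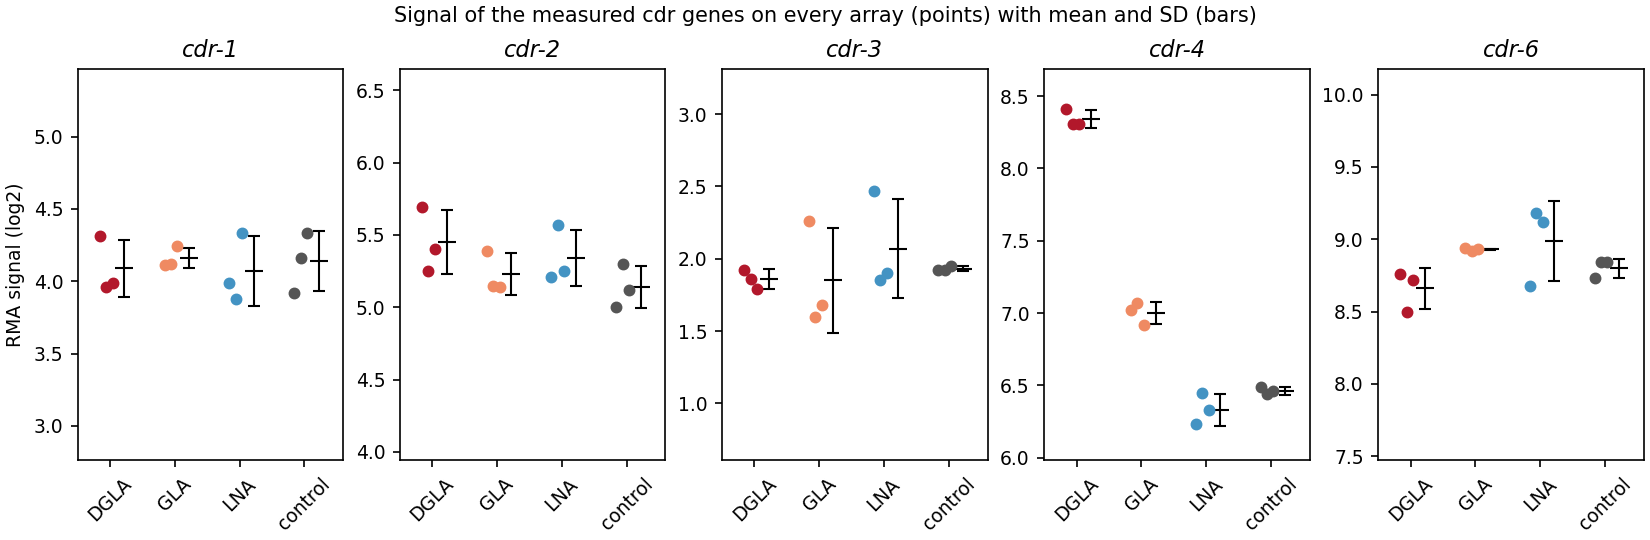
RMA signal (log2, vertical axis) of the 5 measured cdr genes on the 3 DGLA, 3 GLA, 3 LNA and 3 control arrays (points), with the group mean and SD beside them; every panel spans the same number of log2 units. In cdr-4 the DGLA arrays (8.31 to 8.41) and the GLA arrays (6.92 to 7.07) separate from each other and from the rest. In the other 4 genes neither group separates from all the rest, though the cdr-6 GLA arrays lie above all control and all DGLA arrays.

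The group means of cdr-4 were 8.34 ± 0.0606 with DGLA, 7.0 ± 0.0769 with GLA, 6.33 ± 0.110 with LNA and 6.46 ± 0.0257 in control (SD, n = 3 each). These values chose the gene, so they are given with 95% intervals of the fit and no test. Against control, the signal with DGLA was 3.69-fold (3.23 to 4.21), with GLA 1.46-fold (1.28 to 1.66) and with LNA 0.916-fold (0.803 to 1.05). The 3 comparisons share the same control arrays. Among all 25478 genes the DGLA difference ranked 7 from the top, the GLA difference 160 and the LNA difference 20229.

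Between acids, the elongated acid stood above its precursor, with cdr-4 2.53-fold (2.22 to 2.89) in DGLA against GLA worms, a difference of 1.34 on the log2 scale that ranked 4 from the top. GLA, which has a further double bond, stood above LNA by 0.67 (0.48 to 0.86), or 1.59-fold, and DGLA above LNA by 2.01 (1.82 to 2.20), or 4.03-fold. Without LNA arrays 2 and 3 the LNA group rests on its first array, and these differences were 0.78 for GLA minus LNA and 2.12 for DGLA minus LNA, while LNA minus control was -0.23 in place of -0.13. The spread of cdr-4 within groups was small, with a pooled SD of 0.0749, where the other 4 genes had 0.158 to 0.252.

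**Figure D2:**
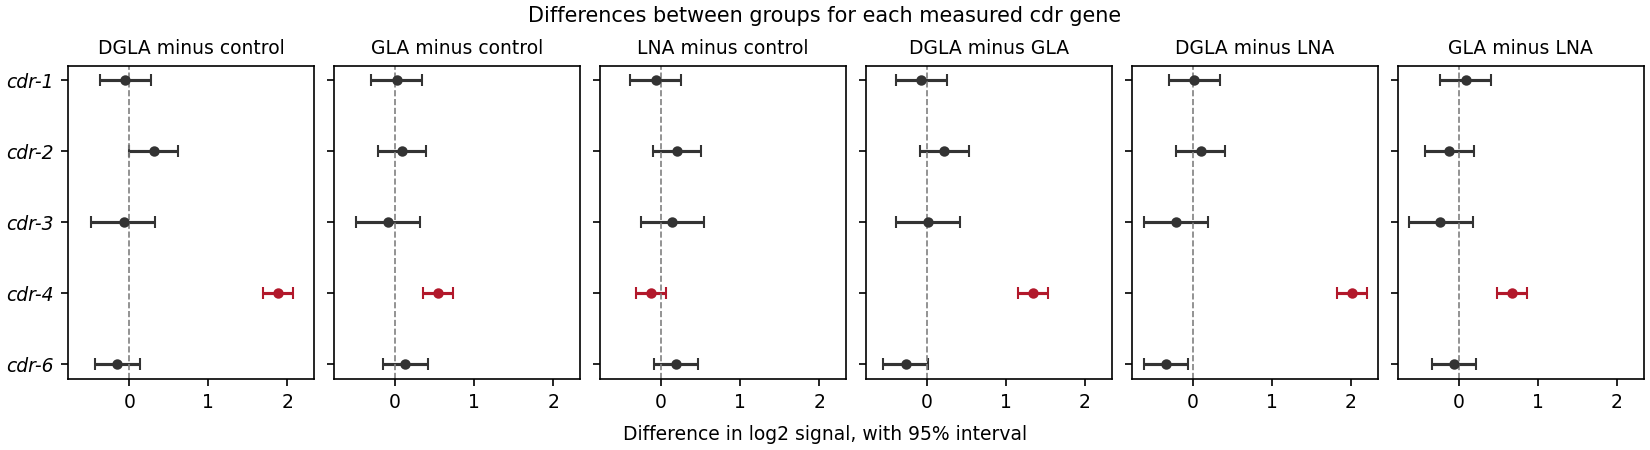
Difference in log2 signal between groups (horizontal axis; points, with 95% intervals as bars) for the 5 measured cdr genes in the 6 comparisons. Intervals of cdr-4 (red) run from 1.69 to 2.07 for DGLA minus control and from 1.15 to 1.53 for DGLA minus GLA, and those of the other genes stay between -0.63 and 0.62.

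The other 4 genes gave 24 tests over the 6 comparisons, and in limma's moderated test with Benjamini-Hochberg adjustment over all 29317 probe sets none was called (adjusted p under 0.05), while 1 had an unadjusted p under 0.05. The lowest adjusted p was 0.349. The background was low throughout, since the share of all probe sets called was 0.498% for DGLA against control, 0.229% for GLA against control, 0.058% for LNA against control, 0.075% for DGLA against GLA, 0.317% for DGLA against LNA and 0.0614% for GLA against LNA. With such small shares, a count of 0 among 4 genes says nothing particular about them. Their differences lay between -0.34 and 0.31, and no interval reached beyond -0.63 or 0.62, so a change as large as that of cdr-4 with DGLA lay outside every one of these intervals.

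The steadily expressed member, cdr-6, read 8.76, 8.50 and 8.72 with DGLA, 8.94, 8.92 and 8.93 with GLA, 8.68, 9.18 and 9.12 with LNA, and 8.73, 8.84 and 8.84 in control. Its GLA arrays lay just above all control arrays and above all DGLA arrays, whereas the LNA arrays ranged from below every GLA and control array (LNA 1) to the 2 highest readings of the 12. With DGLA it differed from control by -0.15 (-0.43 to 0.14, adjusted p = 1), from GLA by -0.27 (-0.55 to 0.01, adjusted p = 0.97) and from LNA by -0.34 (-0.62 to -0.06, adjusted p = 0.349). GLA minus control was 0.13 (-0.15 to 0.41, adjusted p = 0.999), LNA minus control 0.19 (-0.09 to 0.47, adjusted p = 0.645) and GLA minus LNA -0.06 (-0.34 to 0.22, adjusted p = 0.866).

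The 2 LNA arrays that stood apart carried the high cdr-6 values. Without LNA array 1, which leaves those 2, DGLA minus LNA was -0.50 and passed the test (adjusted p = 0.0165), the only call of a tested cdr gene under any alternative. Without LNA arrays 2 and 3, LNA minus control was -0.13 and GLA minus LNA 0.25, both turned in direction, and DGLA minus LNA was -0.02. What sets these arrays apart was not tested.

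Arrays of 2 groups failed to overlap in 2 of the 24 tests, both in cdr-6, for GLA against control and for DGLA against GLA. Over all probe sets the share without overlap was 11.7% and 11.1% in those comparisons, 10.8% for DGLA against control, 12% for LNA against control, 12.8% for DGLA against LNA and 14.9% for GLA against LNA. In cdr-4 the arrays did not overlap in 5 of the 6 comparisons, all but LNA against control, which is part of the pattern it was chosen for.

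The neighbour cdr-2 read 5.69, 5.25 and 5.40 with DGLA, 5.39, 5.15 and 5.14 with GLA, 5.21, 5.57 and 5.25 with LNA, and 5.0, 5.30 and 5.12 in control. Every group overlapped every other. Its mean was highest with DGLA and lowest in control, and DGLA minus control, 0.31 with an interval from -0.002 to 0.62, was its largest difference (adjusted p = 0.88). It differed by 0.09 between GLA and control (adjusted p = 0.999), by 0.20 between LNA and control (adjusted p = 0.653), by 0.22 between DGLA and GLA (adjusted p = 1), by 0.10 between DGLA and LNA (adjusted p = 0.824) and by -0.12 between GLA and LNA (adjusted p = 0.753). Without LNA arrays 2 and 3 it differed by 0.07 between LNA and control, 0.23 between DGLA and LNA and 0.01 between GLA and LNA, none of them called.

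The cadmium-switched founding member, cdr-1, read 4.31, 3.96 and 3.99 with DGLA, 4.11, 4.12 and 4.24 with GLA, 3.99, 3.88 and 4.33 with LNA, and 3.92, 4.16 and 4.33 in control. It lay below the array median on all 12 arrays, and its group means spanned 0.09, less than its pooled within-group SD of 0.189. The difference from control was -0.05 with DGLA (-0.37 to 0.27), 0.02 with GLA (-0.30 to 0.34) and -0.07 with LNA (-0.39 to 0.25), with adjusted p of 1, 0.999 and 0.902 in that order. Between acids it was -0.07 for DGLA minus GLA, 0.02 for DGLA minus LNA and 0.09 for GLA minus LNA. Without LNA arrays 2 and 3, LNA minus control was -0.15, DGLA minus LNA 0.10 and GLA minus LNA 0.17, none of them called.

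The dimmest member was cdr-3, below the lower quartile of the array on all 12 arrays. It read 1.92, 1.86 and 1.79 with DGLA, 2.26, 1.60 and 1.68 with GLA, 2.47, 1.85 and 1.90 with LNA, and 1.92, 1.92 and 1.95 in control. The higher values, GLA array 1 and LNA array 1, were single arrays, and the groups overlapped throughout. Differences ran from -0.23 for GLA minus LNA (adjusted p = 0.649) to 0.14 for LNA minus control (adjusted p = 0.828). Without LNA arrays 2 and 3, which leaves LNA array 1 at 2.47, LNA minus control was 0.54 (adjusted p = 0.567), DGLA minus LNA was -0.61 in place of -0.21 (adjusted p = 0.49) and GLA minus LNA was -0.62 (adjusted p = 0.483).

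As a description over the 12 arrays, cdr-4 followed none of its relatives closely. Its Pearson correlation was 0.46 with cdr-2, -0.04 with cdr-1, -0.29 with cdr-3 and -0.53 with cdr-6. The 6 correlations among the other 4 genes lay between -0.21 and 0.25. The points share the same 12 arrays and their 4 groups.

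In the reference gene table (assembly WBcel235, used for names and gene order only) 5 of the 7 genes stand together on chromosome V in the order cdr-4, cdr-7, cdr-6, cdr-2 and cdr-3. The heme responsive gene hrg-2 (K01D12.14) lies between cdr-4 and cdr-7, cdr-1 lies elsewhere on chromosome V, and cdr-5 is not a symbol of that table. Whether K01D12.14 is the gene called cdr-5 was not settled by the tables used here; it had no probe set, and it is counted below as a neighbour. The 3 protein-coding genes on each side of each cdr gene made 13 neighbours, of which 10 had a probe set. None of the 10 was called in limma's test in any comparison.

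With DGLA the neighbours differed from control by -0.45 to 0.42 (median -0.10), with GLA by -0.33 to 0.31 (median 0.01) and with LNA by -0.32 to 0.24 (median 0.03). Both ends of the DGLA range lay beside cdr-1, with gst-38, a glutathione S-transferase, at 5.44 against 5.89 in control and nhr-108, a nuclear hormone receptor, at 2.89 against 2.47. Next to cdr-4 itself, K01D12.10 averaged 3.26 with DGLA, 3.49 with GLA, 3.26 with LNA and 3.30 in control. On the far side of the cluster C54D10.3 averaged 6.63 with DGLA, 6.61 with GLA, 6.82 with LNA and 6.57 in control. The plot in chromosomal order sets these genes beside cdr-4.

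**Figure D3:**
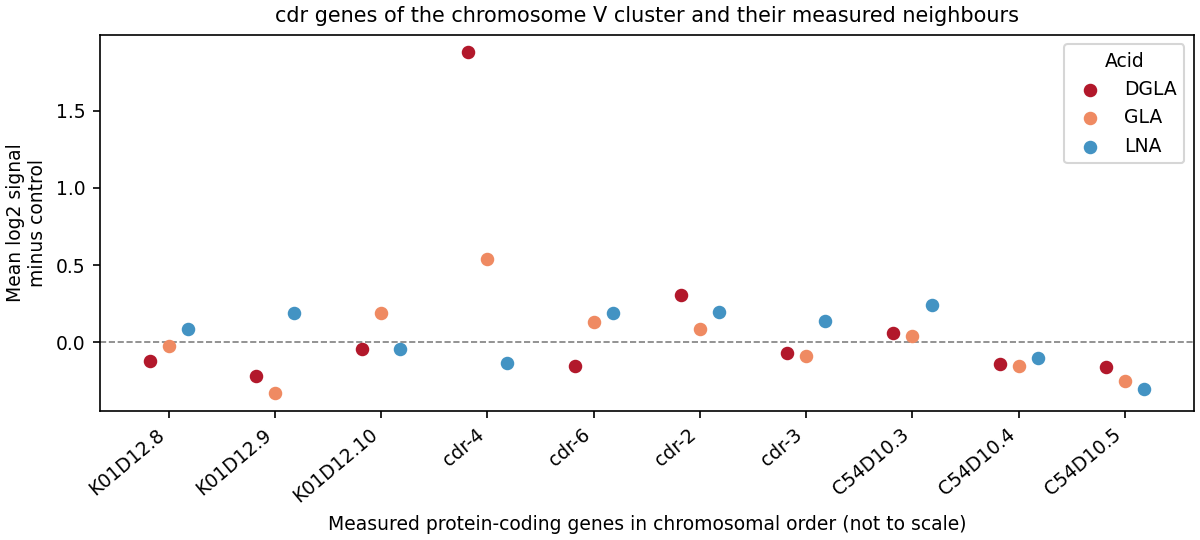
Mean log2 signal minus control (vertical axis) with DGLA, GLA and LNA for the 4 measured cdr genes of the chromosome V cluster and 6 measured protein-coding neighbours, in chromosomal order and not to scale. The DGLA point of cdr-4 lies at 1.88 and its GLA point at 0.54, while the points of all other genes shown lie between -0.33 and 0.31.

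Of the 178 genes whose group means spanned at least 1, cdr genes aside, 9 correlated with cdr-4 above 0.9 over the 12 arrays and 8 below -0.9. The 8 with the highest positive correlation are named here as a description of likeness with no test. Closest was nta-1 (F12E12.11, r = 0.992), which read 7.98, 7.37 and 7.55 with DGLA, 6.01, 5.94 and 5.88 with GLA, 4.81, 4.91 and 5.03 with LNA, and 5.36, 5.19 and 5.11 in control. It took the same order of groups as cdr-4, with LNA lowest, and the correlation was 0.97 over the 9 arrays without DGLA.

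The kinase-like genes T16G1.6 (r = 0.981) and T16G1.7 (r = 0.953) were also among the 8. T16G1.6 differed from control by 1.59 with DGLA, 0.32 with GLA and -0.03 with LNA. T16G1.7 differed from it by 1.97 with DGLA, 0.52 with GLA and 0.0042 with LNA. Without the DGLA arrays their correlations with cdr-4 were 0.82 and 0.78. F25D1.5 (r = 0.972) averaged 4.17 with DGLA, 3.23 with GLA, 2.41 with LNA and 2.35 in control, and its LNA and control arrays all lay below the lower quartile of the array.

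Conjugating enzymes were also among these genes. The glutathione S-transferase gene gst-33 (r = 0.935) averaged 6.69 ± 0.378 with DGLA, 5.76 ± 0.175 with GLA, 4.54 ± 0.170 with LNA and 4.68 ± 0.295 in control (SD, n = 3 each). Its GLA step from control was 1.08 and its DGLA step 2.01, so GLA reached further towards DGLA than in cdr-4. Another glutathione S-transferase gene, gst-5 (R03D7.6, r = 0.977), averaged 4.85 with DGLA, 4.07 with GLA, 3.51 with LNA and 3.72 in control. The C-type lectin gene clec-206 (r = 0.955) and the short-chain dehydrogenase gene dhs-23 (r = 0.921) completed the 8, with DGLA 0.98 and 0.81 above control, though dhs-23 lay below the lower quartile on 11 of the 12 arrays.

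Deviations from the group means, which leave out the differences between groups, correlated with those of cdr-4 at 0.81 in T16G1.7, 0.79 in gst-5, 0.54 in nta-1, 0.45 in clec-206, 0.37 in F25D1.5, 0.20 in dhs-23, -0.02 in T16G1.6 and -0.06 in gst-33. Within groups, then, the correlation ran from -0.06 to 0.81 among genes picked for their correlation with cdr-4 on the same arrays. The value of gst-5 includes the 3 GLA arrays, on which that gene read the same (4.07).

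**Figure D4:**
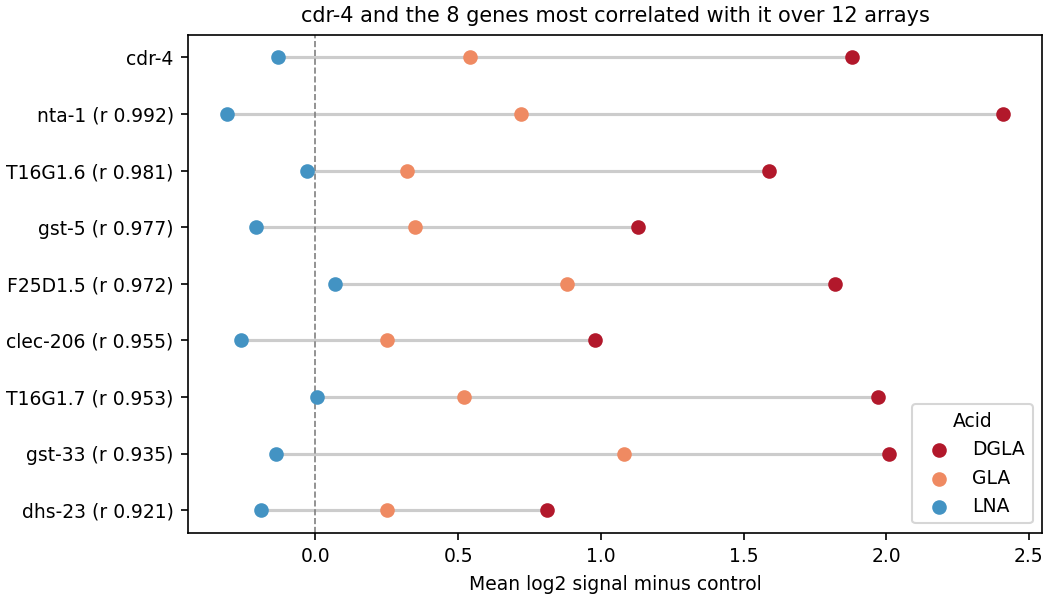
Mean log2 signal minus control (horizontal axis) with DGLA, GLA and LNA for cdr-4 and the 8 genes with the highest Pearson correlation to it (r in the row labels, 12 arrays). In each row DGLA lies furthest right and LNA furthest left; nta-1 spans from -0.31 to 2.41 and cdr-4 from -0.13 to 1.88.

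Other genes of metal handling gave 1 call against control. Of 21 genes of metal response listed, 19 were measured, and with DGLA 1 passed limma's test against control, with GLA and LNA none. Over all probe sets the shares called were 0.498% with DGLA, 0.229% with GLA and 0.058% with LNA, so a count of 0 among 19 is no result about the list. The median difference was 0.05 with DGLA, 0.04 with GLA and 0.09 with LNA, where all genes had medians of -0.0017, -0.0024 and 0.02. The metallothionein mtl-2, which binds cadmium, read 8.71, 8.41 and 8.44 with DGLA, 8.39, 8.50 and 8.54 with GLA, 8.41, 8.66 and 8.44 with LNA, and 8.09, 8.39 and 8.43 in control. Its DGLA difference of 0.21 (-0.05 to 0.48) was not called (adjusted p = 0.958).

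The second metallothionein gene, mtl-1, averaged 2.36 ± 0.286 with DGLA, 2.46 ± 0.0511 with GLA, 2.46 ± 0.234 with LNA and 2.44 ± 0.160 in control. Phytochelatin synthase pcs-1, which makes metal-binding peptides, differed from control by -0.14 with DGLA, and hmt-1, which carries those peptides into vesicles, by 0.06. The zinc-sensing nuclear receptor hizr-1 differed by 0.10 and the metal-induced nuclear genes numr-1 and numr-2 by -0.20 and 0.17. None of these passed (adjusted p between 0.952 and 1).

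The metal response gene that passed was pgp-1, an ABC transporter known for tolerance of heavy metals in this species. It read 7.18, 7.32 and 7.08 with DGLA, 6.71, 6.75 and 6.71 with GLA, 5.92, 5.18 and 5.53 with LNA, and 6.08, 5.82 and 5.87 in control. The groups took the order of cdr-4, with DGLA above GLA, GLA above control, and LNA overlapping control. It rose 2.41-fold with DGLA against control (log2 difference 1.27, SE 0.158, adjusted p = 0.00239) and 3.14-fold against LNA (adjusted p = 0.000616). GLA exceeded LNA 2.26-fold (adjusted p = 0.0244), a call that ended without any 1 GLA array, without LNA array 3, on the 6 arrays compared alone, or without LNA arrays 2 and 3 together (0.80, adjusted p = 0.163), and with GLA against control pgp-1 was not called (0.80, adjusted p = 0.104). Its relatives pgp-3 (-0.13) and mrp-1 (0.03) were not called with DGLA.

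**Figure D5:**
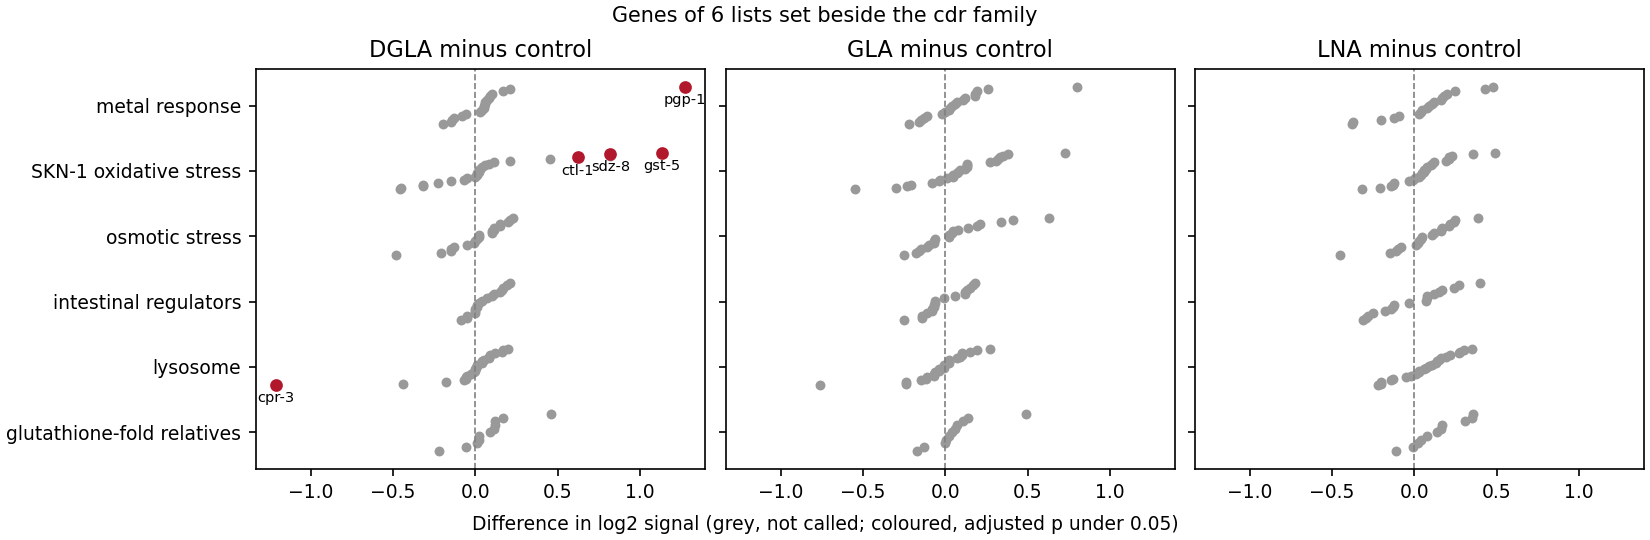
Difference in log2 signal from control (horizontal axis) for the measured genes of 6 lists with DGLA, GLA and LNA; each point is a gene, coloured and named where called at an adjusted p under 0.05. With DGLA pgp-1 (1.27), gst-5 (1.13), sdz-8 (0.82), ctl-1 (0.62) and cpr-3 (-1.21) are called, and no listed gene is called with GLA or LNA.

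A list of oxidative stress genes set up around the transcription factor SKN-1, a regulator of detoxification in the intestine, had 24 measured members. The list holds skn-1 itself, and whether SKN-1 acts on its members was not tested. It gave 3 calls with DGLA against control, all upward, and none with GLA or LNA (medians 0.02, 0.09 and 0.06). Over all probe sets 0.498%, 0.229% and 0.058% were called. The 3 were gst-5 (1.13, adjusted p = 0.00127), sdz-8 (0.82, adjusted p = 0.0378) and the cytosolic catalase ctl-1 (0.62, adjusted p = 0.0195). The count was 1 without DGLA 1, DGLA 2, control 1 or control 3, and 1 on the 6 arrays compared alone. The call of sdz-8 ended without any 1 array of the comparison except DGLA 3, and that of ctl-1 without any 1 except control 2.

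Members of this list did not move alike, and the uncalled ones named here were chosen after their values were seen. The familiar SKN-1 reporters gst-4 and gcs-1 did not take the group order of cdr-4, whereas gst-5 did. The gst-4 gene averaged 7.06 ± 0.0551 with DGLA, 7.46 ± 0.109 with GLA, 7.34 ± 0.258 with LNA and 7.13 ± 0.0348 in control, and gcs-1, which makes the first enzyme of glutathione synthesis, averaged 8.11, 8.16, 8.13 and 8.09 in the same order. Neither was called in any comparison. Nor was gst-7, which averaged 6.69 ± 0.166 with DGLA, 6.60 ± 0.177 with GLA, 5.97 ± 0.364 with LNA and 5.88 ± 0.201 in control. Against LNA, DGLA raised gst-5 2.54-fold (adjusted p = 0.000584) and gst-13 was lower (-0.94, adjusted p = 0.0454). The gst-13 call ended without LNA arrays 2 and 3 (-0.60), without either of them singly, or without DGLA 2 or DGLA 3. Its result changed in 7 of the 13 alternatives run, not all of which are named here.

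None of 20 osmotic stress genes, 18 regulators acting in the intestine or 11 relatives with a glutathione S-transferase fold was called in any comparison by limma. With 0.058% to 0.498% of all probe sets called, counts of 0 in lists of this size say nothing particular about them. Their medians with DGLA against control were 0.02, 0.03 and 0.09. The 11 relatives leave out the glutathione S-transferase genes gst-5, gst-13 and gst-33 given above, so they do not stand for all genes of that fold. The intestinal GATA factor elt-2 averaged 7.03 with DGLA, 7.14 with GLA, 7.30 with LNA and 7.03 in control, and skn-1 itself 8.76, 8.68, 8.62 and 8.76.

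Of 24 measured lysosomal genes, the compartment of the CDR-1 protein, only the cathepsin B-like protease gene cpr-3 was called, and it fell. That is 1 call with DGLA against control, where 0.498% of all probe sets were called, and the count was 2 with array weights, with the intensity trend and robust prior or without dim probe sets, and 0 on the 6 arrays compared alone. It read 6.18, 5.80 and 5.62 with DGLA, 6.45, 6.29 and 6.21 with GLA, 6.79, 6.95 and 6.89 with LNA, and 7.37, 7.14 and 6.73 in control. The DGLA arrays lay below all control arrays, by 1.21 on average (log2 difference -1.21, SE 0.169, adjusted p = 0.00578), and below all LNA arrays (-1.01, adjusted p = 0.0325). The call against control ended on the 6 arrays compared alone (adjusted p = 0.12). The call against LNA ended there too (adjusted p = 0.149), without DGLA 2, DGLA 3, LNA 2 or LNA 3, and without LNA 2 and LNA 3 together (adjusted p = 0.33).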

How the data were processed

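Biotin-labelled cRNA from Trizol-extracted total RNA of whole L4 larvae was hybridised to Affymetrix arrays, per the labels' protocols. The deposited table holds log2 signals that the authors made with RMA, and Affymetrix Expression Console and Transcriptome Analysis Console are named, per the submitters' processing notes. For software versions, options and the genome build, the labels and headers state nothing. All 29317 probe sets were used. Those with 1 gene symbol (25546, of which 25495 matched the gene table by identifier) stand for 25478 genes, each by its probe set of highest mean, while 646 carried several symbols and 3125 none.

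Group means were fitted to all 12 arrays in limma 3.58.1 (R 4.3.3; lmFit, eBayes; prior degrees of freedom 3.60, total 11.6), two-sided, with Benjamini-Hochberg adjustment over all probe sets and no replicate block. The median SE of a log2 difference was 0.136, and 3 arrays a group limit the precision. The fit was tested on simulated data. Members and gene lists were chosen with earlier results of these data known. By rule the text names all cdr genes, up to 4 called members of each list, neighbours that were called and up to 4 others by position, and the 8 genes most like cdr-4. Outside that rule, gst-38, nhr-108 and the list members that were not called were chosen after their values were seen. Alternatives left out single arrays or LNA 2 and 3, used only the 6 arrays compared, dropped dim probe sets (mean up to 4.523), and added a replicate block, cyclic loess, array weights or a robust prior with intensity trend. Sequences of the genes are not analysed here.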

Additional observations from a re-analysis of the deposited data

How the results depend on the processing

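The count of tested cdr genes called stayed at 0 in the 6 comparisons under each alternative run, the replicate block included, with 1 exception: leaving out single arrays gave 0 to 1 for DGLA against LNA, where cdr-6 passed without LNA 1. Dim probe sets removed, cdr-1 and cdr-3 had no value. For cdr-4 the values that moved by more than the spread within groups came without LNA 2 and LNA 3 (LNA minus control -0.23, DGLA minus LNA 2.12, GLA minus LNA 0.78), and leaving out single arrays gave 1.85 to 1.90 for DGLA minus control and 0.51 to 0.59 for GLA minus control. Values near 0 that changed sign were all uncalled, and the cause was not tested. With array weights cdr-1 was 0.01 (LNA minus control) and -0.10 (DGLA minus LNA) and cdr-3 -0.01 (DGLA minus GLA), with cyclic loess cdr-6 was 0.01 (GLA minus LNA), and without LNA 2 and LNA 3 cdr-6 was -0.13 (LNA minus control) and 0.25 (GLA minus LNA) and cdr-2 0.01 (GLA minus LNA).

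Leaving out single arrays, ranges that crossed 0 were, for cdr-1, -0.16 to 0.05 (DGLA minus control), -0.09 to 0.12 (GLA minus control), -0.20 to 0.03 (LNA minus control), -0.09 to 0.15 (DGLA minus LNA) and -0.0047 to 0.22 (GLA minus LNA). For cdr-2 the range was -0.02 to 0.22 (DGLA minus LNA), for cdr-3 -0.29 to 0.04 (GLA minus control), -0.06 to 0.25 (LNA minus control) and -0.11 to 0.22 (DGLA minus GLA), and for cdr-6 -0.22 to 0.03 (GLA minus LNA). Same-numbered arrays are not described as sharing a litter, batch or day, and their deviations from the group means correlated at -0.133 to 0.216, so the numbers were not taken as pairs. With the replicate block the calls of sdz-8 (DGLA against control, adjusted p = 0.0984), gst-13 (DGLA against LNA, 0.124) and pgp-1 (GLA against LNA, 0.0509) ended, and it changed no call of a cdr gene.

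Calls of pgp-1 and gst-5 with DGLA, against control and against LNA, held under each alternative run (for gst-5 without the dim filter, which removes it). On the 6 arrays compared alone cpr-3 (0.12), ctl-1 (0.12) and sdz-8 (0.0829) were not called for DGLA against control. The 3 calls of the SKN-1 list with DGLA against control became 5 with array weights or with the intensity trend and robust prior.

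Counts of probe sets called moved by over 1.5 times. Leaving out single arrays gave 89 to 106 for DGLA against control (146 in the reported fit), 24 to 54 for GLA against control (67), 5 to 895 for LNA against control (17), 8 to 11 for DGLA against GLA (22), 39 to 1359 for DGLA against LNA (93) and 4 to 961 for GLA against LNA (18), with the 3 highest counts, 895, 1359 and 961, without LNA 1. The other alternatives gave 66 to 210, 27 to 98, 0 to 38, 11 to 32, 22 to 209 and 3 to 29 in that order.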

Other observations

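Body wall muscle markers spread most widely on the LNA arrays, where the mean of 5 genes ran from 8.54 to 9.90, against 9.60 to 9.81 on control arrays, and none of the 5 was called by limma in any comparison. All but hlh-1 (4.92, 5.0 and 5.05 on LNA 1, 2 and 3) read lower on LNA 2 and LNA 3, the arrays that stood apart, than on LNA 1. The widest fall was in unc-89, at 9.93, 7.39 and 7.60 in that order. The value of gst-5 was the same to all deposited decimals on the 3 GLA arrays (4.07).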
